A study of Mus musculus with 6 samples.

Results

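The replication-dependent histone genes were described in SCC7, a mouse squamous cell carcinoma line, by taking every gene whose symbol follows the naming scheme of the clustered H1, H2A, H2B, H3 and H4 genes. This gave 61 genes of the 17030 in the expression table, of which 6 encode H1, 16 H2A, 15 H2B, 12 H3 and 12 H4. The irradiated group held 3 samples of SCC7 cells given radiotherapy at 9 Gy, and the control group held 3 samples of the same cells left without treatment. Every sample carries the time label day 0, so how long after irradiation the cells were harvested is not stated, and no label says that the samples of a group were separate cultures, so the p-values measure a spread that may be technical. RNA was depleted of ribosomal RNA before library construction, and the values are FPKM, fragment numbers divided by transcript length and library total, which allows levels of different genes to be compared per length.

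Replication-dependent histone genes supply the proteins that package new DNA, and their mRNAs accumulate in S phase. They lie in clusters, mostly without introns, and their mRNAs end in a conserved stem-loop in place of a poly(A) tail. The stem-loop is bound by the protein SLBP, which acts in the cutting of the 3′ end, in translation and in the decay of the mRNA when DNA synthesis stops. H2A, H2B, H3 and H4 form the nucleosome core, and H1 binds the linker DNA between nucleosomes.

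In the mouse genome build GRCm38.p6, 51 of the 61 genes lay on chromosome 13 and 10 on chromosome 3. The chromosome 13 genes fell into a block of 22 between 21715711 and 22043658 and a block of 29 between 23531044 and 23764412. The chromosome 3 genes lay between 96219885 and 96270192. A perfect stem-loop of 16 bases (GG, 3 bases and T, a loop of 4 bases, then A, the complement of the 3 bases and CC, sense strand only) was present in a GENCODE M21 transcript of 43 of the 61 genes (70.5%), against 330 of 16285 other protein-coding genes in the table (2.03%). The version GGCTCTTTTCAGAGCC was the most frequent and occurred in 3 H1, 9 H2A, 7 H2B and 5 H3 genes. The 11 H4 genes with a stem-loop had other stems, most often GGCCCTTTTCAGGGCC, in 6 genes. The stem-loops of the genes on which the comparison turns, and of their close relatives, are given 5′ to 3′ from the GENCODE transcripts, with the 16 bases of the stem-loop in capitals.
H1f3: ctcaaacGGCTCTTTTCAGAGCCacccaca
H2ac18: ctaaaaaGGCTCTTTTCAGAGCCacccact
H2ac19: ctaaaaaGGCTCTTTTCAGAGCCacccact
H2ac23: aaaaaaaGGCTCTTTTCAGAGCCatccaca
H2ac24: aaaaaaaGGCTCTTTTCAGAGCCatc
H4c9: acttaaaGGCCCTTTTTAGGGCCaccacaa
H4c11: ccctaaaGGTCCTTTTCAGGACCaccacat
H4c18: aactaaaGGCCCTTTTCAGGGCCatccaat
H2ac18 and H2ac19 had the same 30 bases here, and H2ac23 and H2ac24 had the same bases as far as the shorter H2ac24 transcript runs. Of the 43 genes, 23 had transcripts that end at most 100 bases past the stem-loop and 20 had transcripts that run further. For the other 18 genes, H2bc4, H2bc18 and H2bc23 among them, these letters were not found in any annotated transcript. Some of these transcripts are shorter than the RefSeq gene (381 against 493 bases for H2bc18, 312 against 409 for H4c12). They may end before a stem-loop, so its absence from these genes is not shown.

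The genes resemble one another so closely that fragments can be assigned to more than 1 of them. For the median gene, 59.3% of all 31-base stretches of its transcripts also occurred in transcripts of another gene, and 19 genes shared at least 80%. H2ac19 shared 100% of its stretches, with H2ac18 as the closest gene, H2ac23 shared 93.8% and H2ac24 shared 93.4%, each with the other as the closest, and H2bc23 shared 98.3%, with the gene once called Hist1h2br as the closest. How the authors assigned such fragments is not given in the sources used here, so the values of these copies are uncertain individually, and their sums are given beside them.

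RefSeq promoters (250 bases before the start, same build) matched 56 of the 61 genes. On both strands, the octamer ATTTGCAT, a site known for H2B promoters and bound by Oct-1, occurred in 11 of 56 promoters (19.6%) and in 1.6% of 27025 promoters of the genome. All 11 belonged to H2A (5 of 16) and H2B (6 of 13) genes. The promoters of the neighbours H2ac12 and H2bc12 overlap and hold the same octamer, as do those of H2ac8 and H2bc8. The 11 promoters thus hold fewer separate sites. CCAAT was found in 82.1% of the 56, against 34.2% of all promoters, and in every H1, H2A and H2B promoter but only 27.3% of H4 promoters. TATAAA was found in 46.4%, against 12.9% of all promoters. No matches of the 3 motifs overlapped each other. The 150 bases before the start are shown for a called gene of each of 4 classes, since they differ in these motifs, which are in capitals on either strand.
H1f3 (chr13:23554882-23555031, plus strand): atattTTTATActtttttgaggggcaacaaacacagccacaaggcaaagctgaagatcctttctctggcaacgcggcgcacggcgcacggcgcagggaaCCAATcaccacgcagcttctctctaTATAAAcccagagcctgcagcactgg
H2ac24 (chr13:21833476-21833625, minus strand): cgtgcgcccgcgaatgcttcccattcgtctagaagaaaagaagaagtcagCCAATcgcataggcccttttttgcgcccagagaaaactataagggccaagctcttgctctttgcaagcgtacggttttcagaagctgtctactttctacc
H2bc18 (chr3:96269550-96269699, plus strand): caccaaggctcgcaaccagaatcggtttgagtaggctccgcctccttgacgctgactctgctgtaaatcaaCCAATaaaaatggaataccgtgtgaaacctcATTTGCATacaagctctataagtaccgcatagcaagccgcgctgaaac
H4c11 (chr13:21734884-21735033, plus strand): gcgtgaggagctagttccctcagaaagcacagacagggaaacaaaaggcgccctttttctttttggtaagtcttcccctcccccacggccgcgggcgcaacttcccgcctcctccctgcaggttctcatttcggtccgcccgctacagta
Within these 150 bases H1f3 held CCAAT and TATAAA matches, H2ac24 held CCAAT, H2bc18 held CCAAT and the octamer, and H4c11 held none of the 3 motifs.

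Libraries also differed in properties that move with the groups or within the controls. FPKM summed to 652691 to 663489 in irradiated libraries and 693961 to 982553 in controls, 15131 to 15317 genes were above 0 in irradiated libraries and 14086 to 14129 in controls, and the number of fragments behind the values is unknown. The median SD of a gene was 0.08 among irradiated libraries and 0.30 among controls on the log2(FPKM + 1) scale, and control 3 stood apart from controls 1 and 2 (Pearson r across genes of 0.956 and 0.928, against 0.989 between controls 1 and 2). Of 12 squamous epithelium markers, 7 stayed below 1 FPKM in every library, among them Krt5 and Krt14, while the simple epithelial keratins Krt8 and Krt18 were abundant. The summed squamous list was 504 to 515 FPKM in irradiated libraries and 713 to 1914 FPKM in controls. Krt8 and Krt18 held most of this sum in every library, so it does not describe the other listed markers. Leukocyte markers summed to 7.44 to 9.27 FPKM in irradiated libraries and 2.92 to 5.06 FPKM in controls with 4 of the 6 genes found in the table below 1 throughout, fibroblast markers to 199 to 225 FPKM in irradiated libraries and 145 to 257 FPKM in controls with 2 of 8 below 1, and endothelial markers to 0.25 to 0.51 FPKM in irradiated libraries and 0.36 to 0.63 FPKM in controls with 4 of 4 below 1. Within these lists Lyz2, Col1a1 and Dcn were called higher and Krt18 lower, and the other members did not pass or were not tested. Of the 6 fibroblast markers tested, 4 changes were above 0 and 2 below. Col3a1 was lower in every irradiated library (log2 fold change -0.37, limma adjusted p = 0.122). Of the leukocyte markers only Lyz2 and Cd68 were tested, and Ptprc, Adgre1, Itgam and Csf1r stayed at or below 0.06 FPKM. Of the 4 squamous list genes tested, 1 change was above 0 and 3 below. Lyz2, a leukocyte marker, averaged 3.09 ± 0.626 FPKM in irradiated cells and 0.533 ± 0.240 FPKM in controls (SD, n = 3 each, limma adjusted p = 0.00745). The fibroblast gene Col1a1 averaged 45.9 ± 6.58 FPKM in irradiated cells and 18.9 ± 0.872 FPKM in controls (SD, n = 3 each, limma adjusted p = 0.00474), and Dcn 5.32 ± 1.70 FPKM in irradiated cells and 1.12 ± 0.172 FPKM in controls (adjusted p = 0.00860). Krt18 averaged 105 ± 6.47 FPKM in irradiated cells and 401 ± 168 FPKM in controls (adjusted p = 0.0261). The part of these markers in the histone results was not tested.

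A few genes carried most of the replication-dependent histone signal. Averaged over the 6 libraries, 54 of the 61 genes were below 5 FPKM, and only H2ac24, H2ac23, H2bc4, H1f2, H2ac18 and H4c9 reached 10 FPKM. H2ac24, a core H2A gene on chromosome 13 (21833024 to 21833475), took 36.8%, 41.5% and 43.7% of the summed histone FPKM in irradiated libraries 1 to 3, against 78.3%, 82.6% and 73.7% in controls 1 to 3. The other genes were so low that the median gene stood at 2.09, 2.39 and 2.37 FPKM in irradiated libraries and at 1.27, 1.39 and 1.03 FPKM in controls. Genes listed at 0 numbered 6, 6 and 3 in irradiated libraries and 8, 9 and 13 in controls. An exact 0 in such a table can also be a failed estimate.

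**Figure D1:**
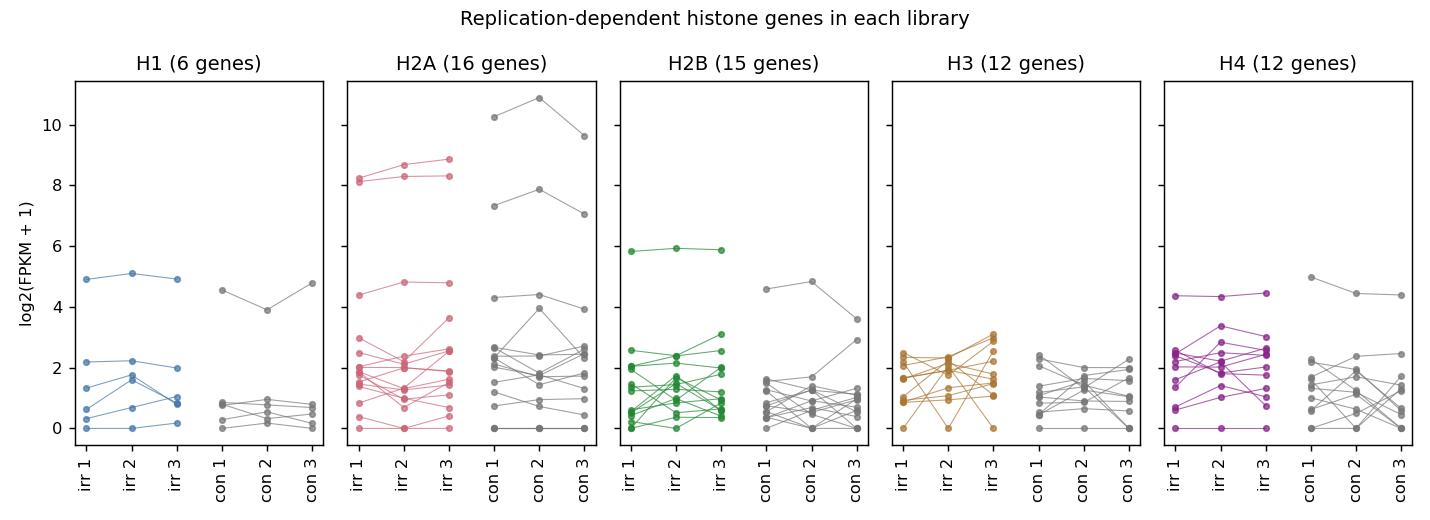
Each line joins the log2(FPKM + 1) values of a gene across the 3 irradiated (irr, coloured) and 3 control (con, grey) libraries, in a panel for each histone class. H2ac24 and H2ac23 stand far above the other H2A genes, and in every other class at most 1 gene averages 10 FPKM or more.

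Irradiated and control cells were compared to ask which histone transcripts differ after radiotherapy. Most measured histone genes were at higher values in irradiated cells, but few passed the test, and the most abundant, H2ac24, was lower. Genes that reached 1 FPKM in 3 libraries or more were tested with limma on log2(FPKM + 1), with Benjamini-Hochberg adjustment over all 11103 genes, and called at an adjusted p below 0.05. Of the 61 genes 43 entered the test, and 3 of them (H1f3, H2ac19 and H2bc21) entered through their irradiated libraries only. Of the 43, 6 were called higher (14%, against 9.24% of all genes tested) and 1 lower (2.3%, against 2.77%), shares that stand near those of all genes. H1f3 and H2ac19 are among the 6, so the count higher is partly set by the filter. Every irradiated library lay above every control for 17 of the 43 (39.5%, against 31.8% of all genes) and below for 3 (7%, against 13.7%), and the groups overlapped for 23. The log2 fold change was above 0 for 33 and below 0 for 10, with a median of 0.50, against 0.17 for all genes tested, where 62.8% were above 0. The distance between these medians depended on the scaling. With trimmed-mean scaling, which sets a trimmed average log ratio to 0, the medians were 0.37 for the histone genes and -0.01 for all genes, and after quantile normalization 0.04 and -0.02. The 18 genes that were not tested never exceeded 3.13 FPKM, and 14 of them had the higher mean in irradiated cells. Without any filter, the median was 0.45 over all 61 genes, against 0.06 over all genes.

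**Figure D2:**
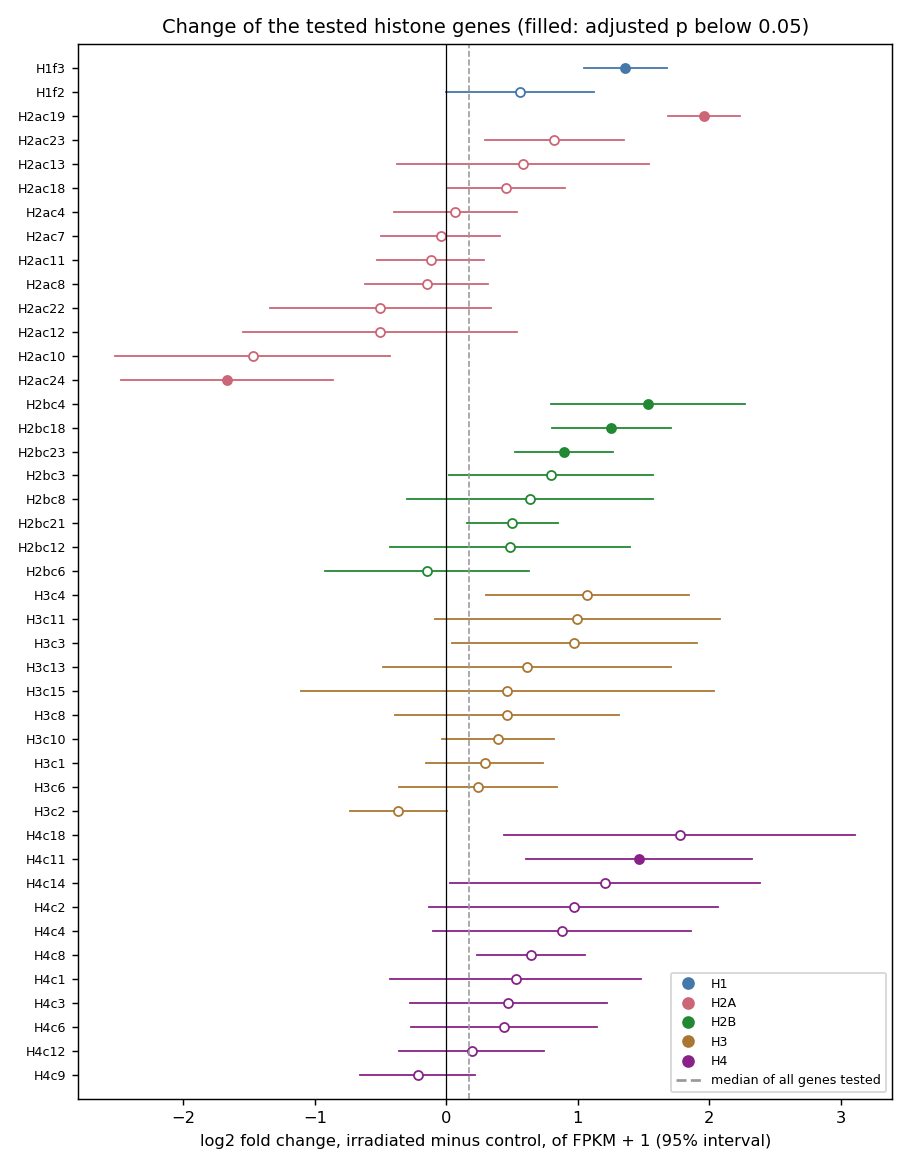
Log2 fold change (irradiated minus control, of FPKM + 1) with its 95% interval for the 43 tested histone genes, by class, with filled points for the 7 called genes and a dashed line at the median of all genes tested, 0.17. H1f3, H2ac19, H2bc4, H2bc18, H2bc23 and H4c11 lie to the right of 0 and H2ac24 to the left, and H2A genes spread to both sides.

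Summed, the histone genes other than the H2ac23 and H2ac24 pair were higher in irradiated cells. By class this held for H1, H2B, H3 and H4 and not for H2A. These 59 genes, set apart after the values were seen, summed to 237, 265 and 281 FPKM in irradiated libraries and 179, 167 and 150 FPKM in controls, with no overlap. H2B showed the widest gap, with 76.3, 84.6 and 85.0 FPKM in irradiated libraries and 35.6, 39.3 and 26.4 FPKM in controls. Most of this gap came from 1 gene, H2bc4, which averaged 57.8 ± 2.10 FPKM in irradiated cells and 20.6 ± 8.46 FPKM in controls (SD, n = 3 each). The H3 sum was 31.7 ± 7.31 FPKM in irradiated cells and 17.9 ± 0.586 FPKM in controls (SD, n = 3 each, as for the next sums). The H4 sum was 54.1 ± 4.24 FPKM in irradiated cells and 39.3 ± 7.56 FPKM in controls. The H1 sum was 37.2 ± 4.14 FPKM in irradiated cells and 23.3 ± 6.21 FPKM in controls. Most of it was H1f2, which averaged 30.5 ± 2.45 FPKM in irradiated cells and 21.1 ± 6.49 FPKM in controls. The H2A sum without the pair, 56.3 ± 8.44 FPKM in irradiated cells and 51.1 ± 5.36 FPKM in controls, overlapped between the groups. With all 61 genes the order turned round, at 954 ± 127 FPKM in irradiated cells and 1644 ± 613 FPKM in controls, and H2ac24 alone exceeded all other histone genes together in every control. The H4 groups stood close, with 49.3 FPKM in the lowest irradiated library and 47.6 FPKM in the highest control. These sums are descriptions of FPKM as deposited and were not tested. No sum was computed under another scaling, on which the median change of the histone genes depended. In cultured cells taken as a whole, a different share of cells in S phase and a different amount of histone mRNA per cell cannot be told apart.

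**Figure D3:**
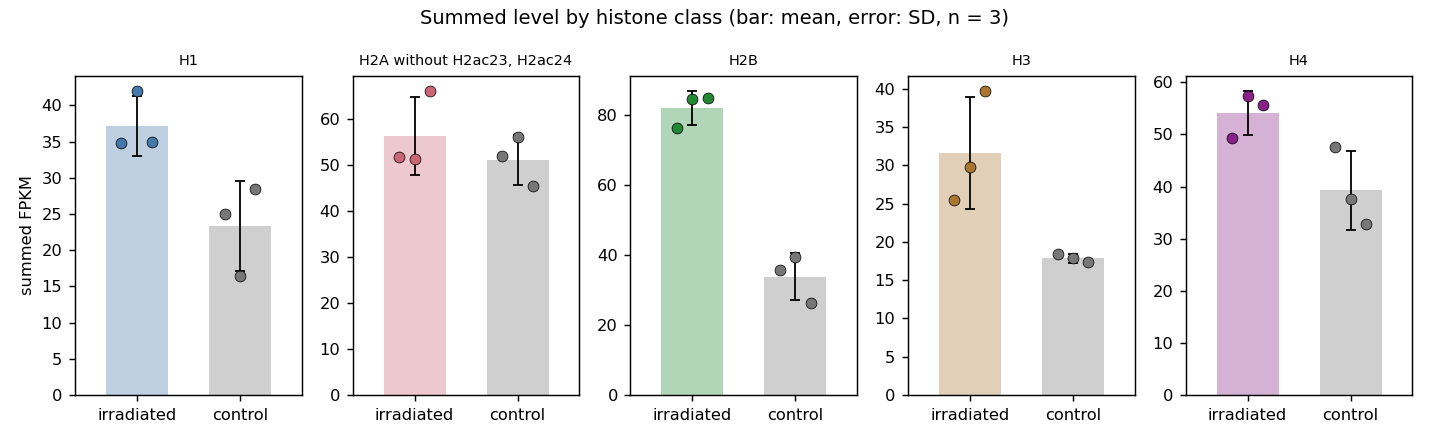
Summed FPKM of each histone class in the 3 irradiated and 3 control libraries (points), with the mean as a bar and the SD as an error bar, and with H2ac23 and H2ac24 left out of H2A. Irradiated libraries lie above the controls for H1, H2B, H3 and H4, and the groups overlap for H2A.

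Of the H1 genes, which encode linker histones, H1f3 was called higher, having entered the test through its irradiated libraries only. H1f3 encodes a somatic H1 subtype (chromosome 13, 23555032 to 23555807), and it measured 3.55, 3.68 and 2.97 FPKM in irradiated libraries and 0.81, 0.71 and 0.61 FPKM in controls. All irradiated values lay above all control values, and the log2 fold change was 1.36 (SE 0.13, limma adjusted p = 0.00288, and 0.0048 without any filter). Of its 31-base stretches 3.5% occurred in other genes, counted over an annotated transcript of 7425 bases, while the RefSeq gene spans 776. The share within the RefSeq gene alone was not computed. Correction for transcript length and GC content lowered the change to 0.79 and ended the call (adjusted p = 0.0699). That correction used the 7425-base transcript, and the length behind the FPKM of H1f3 is not known. H1f2, the most abundant H1 gene, measured 28.9, 33.3 and 29.2 FPKM in irradiated libraries and 22.55, 13.95 and 26.7 FPKM in controls. It did not pass (log2 fold change 0.56, adjusted p = 0.132). H1f1 and H1f4 stayed at or below 2.39 FPKM in every library and were not tested.

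Among H2A genes, which form dimers with H2B in the nucleosome, the closest pair of abundant genes went in opposite directions. H2ac24 measured 300.1, 409 and 464 FPKM in irradiated libraries and 1225, 1893 and 793 FPKM in controls. Every irradiated value was below every control, and H2ac24 was called lower at -1.67 on the log2 scale (SE 0.34, limma adjusted p = 0.0320). Control 3, the lowest control, was the nearest to the irradiated libraries, and against control 3 alone the log2 fold change was -1.04 (adjusted p = 0.0534, with the spread taken from the irradiated libraries only, a setting in which 37.2% of all genes were called). H2ac23, its near-identical copy on chromosome 13 (21810367 to 21810918), measured 277, 312 and 317 FPKM in irradiated libraries and 160, 233 and 132 FPKM in controls. Here every irradiated value was above every control, but its change of 0.82 on the log2 scale missed the threshold (SE 0.22, adjusted p = 0.0562). The ratio of H2ac24 to H2ac23 was 1.08, 1.31 and 1.47 in irradiated libraries and 7.64, 8.13 and 6.01 in controls. Since these genes share most of their sequence, the ratio depends on how fragments were assigned. Their sum was 577, 721 and 781 FPKM in irradiated libraries and 1385, 2126 and 925 FPKM in controls, lower in every irradiated library, and did not pass (log2 fold change -1.02, SE 0.31, adjusted p = 0.0720).

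**Figure D4:**
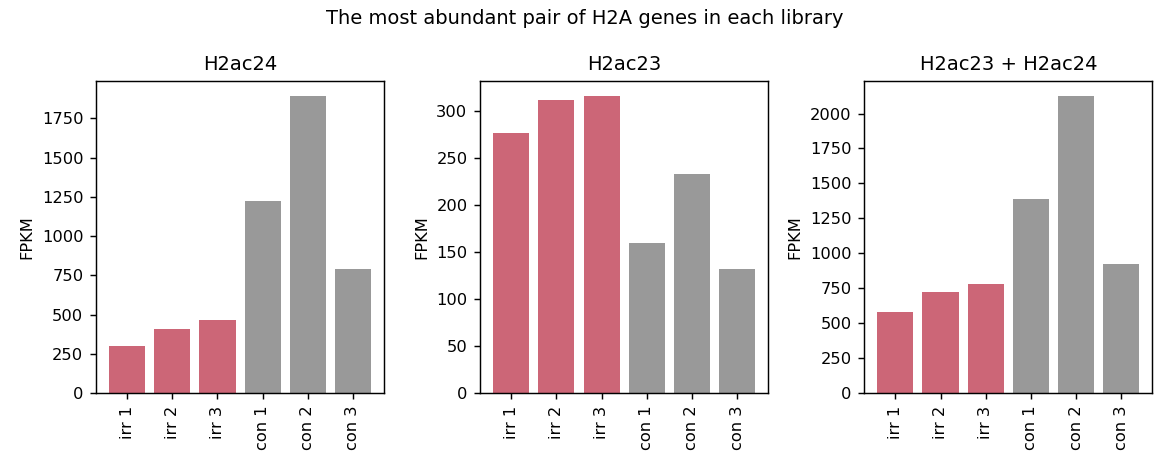
FPKM of H2ac24, H2ac23 and their sum in each irradiated (irr, red) and control (con, grey) library, with each axis starting at 0. The irradiated bars are lower than the controls for H2ac24 and the sum and higher for H2ac23.

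The second H2A call also concerned a copy. H2ac19 on chromosome 3 (96239779 to 96240374) measured 3.02, 3.01 and 2.66 FPKM in irradiated libraries and was listed at 0 in all 3 controls, and it was called higher (limma adjusted p = 0.000526, and 0.00137 without any filter). Like H1f3, it entered the test through its irradiated libraries only, so the filter selected it in the direction of the call. No fold is given against values listed at 0. H2ac18, the gene with which it shares all its stretches, measured 19.9, 27.2 and 26.7 FPKM in irradiated libraries and 18.8, 20.2 and 14.2 FPKM in controls and did not pass (log2 fold change 0.45, adjusted p = 0.130). Summed, H2ac18 and H2ac19 had 22.96, 30.2 and 29.3 FPKM in irradiated libraries and 18.8, 20.2 and 14.2 FPKM in controls, and their change of 0.61 on the log2 scale did not pass (SE 0.18, adjusted p = 0.0671). H2ac10 was lower in every irradiated library, at 1.75, 1.41 and 1.69 FPKM, against 4.01, 14.4 and 3.95 FPKM in controls, and missed the threshold (log2 fold change -1.47, adjusted p = 0.0664), with control 2 far above the other controls. It is named after its values were seen. H2ac13 overlapped between the groups (log2 fold change 0.58, adjusted p = 0.306). Over the 12 H2A genes tested, 5 changes were above 0 and 7 below, with a median of -0.08. The sign of this median turned without control 1 (0.01), against control 3 alone (0.01), without any filter (0.10), with a filter at 5 FPKM (0.52) and after the length and GC correction (0.36).

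Of 8 H2B genes tested, 3 were called higher (37.5%, against 9.24% of all genes), the largest number in a class, and 0 lower. With so few genes in a class, nothing is read from this share. H2bc4 (chromosome 13, 23684199 to 23692480), the most abundant of them, measured 55.6, 59.8 and 57.9 FPKM in irradiated libraries and 23.05, 27.5 and 11.2 FPKM in controls. The irradiated values lay close together and well above all controls, with a change of 1.53 on the log2 scale (SE 0.31, limma adjusted p = 0.0313). The call was lost after trimmed-mean scaling (1.34, adjusted p = 0.0591). H2bc4 is among the genes in whose annotated transcripts the stem-loop letters were not found. H2bc18 on chromosome 3 (96269700 to 96270192), whose promoter holds the octamer, measured 3.12, 4.23 and 4.91 FPKM in irradiated libraries and 0.80, 1.39 and 1.18 FPKM in controls. Its groups did not overlap (log2 fold change 1.25, SE 0.19, adjusted p = 0.0135). H2bc23 (chromosome 13, 21806412 to 21810199) had 3.12, 3.44 and 2.96 FPKM in irradiated libraries and 1.42, 0.87 and 1.5 FPKM in controls, again without overlap (0.89, SE 0.16, adjusted p = 0.0217). Quantile normalization lowered the change of H2bc18 to 0.81 and that of H2bc23 to 0.44 and ended both calls (adjusted p = 0.0532 and 0.0613).

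The copy of H2bc23, listed as H4bc24 and once called Hist1h2br, falls outside the naming scheme. It had exactly the values of H2bc23 in all irradiated libraries and in controls 2 and 3 (0.87 and 1.5 FPKM). Only control 1 differed, at 0.28 FPKM against 1.42 FPKM for H2bc23. Their sum was higher in irradiated cells, at 6.24, 6.88 and 5.92 FPKM against 1.70, 1.74 and 3.00 FPKM in controls (log2 fold change 1.25, SE 0.19, adjusted p = 0.0139). H2bc8, the remaining H2B gene among the 4 most abundant, overlapped between the groups (log2 fold change 0.64, adjusted p = 0.257). Of the 8 changes 7 were above 0, with a median of 0.71, against 0.60 with trimmed-mean scaling and 0.29 with quantile normalization.

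No H3 gene was called by limma, although 9 of 10 changes were above 0 and 2 had an unadjusted p below 0.05. H3, which carries many of the modified lysines of chromatin, had the lowest maximum of the 5 classes, 7.62 FPKM. H3c4 came nearest to the threshold, with 4.07, 3.97 and 7.62 FPKM in irradiated libraries and 3.19, 1.68 and 1.08 FPKM in controls (log2 fold change 1.07, SE 0.33, adjusted p = 0.0692). Its groups did not overlap. H3c11 (0.99, adjusted p = 0.153) and H3c8 (0.46, adjusted p = 0.358) had higher means in irradiated cells with overlapping values. H3c2 was the only tested H3 gene below 0, with 2.16, 2.77 and 2.07 FPKM in irradiated libraries and 3.89, 3.01 and 3.00 FPKM in controls (-0.37, adjusted p = 0.132), and its sign turned after the length and GC correction (0.04). The class median was 0.46, and 0.03 after quantile normalization.

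H4 genes, all of which encode nearly the same protein, had 10 of 11 changes above 0 and 1 call. H4c11 (chromosome 13, 21735034 to 21735456) measured 4.94, 2.49 and 2.37 FPKM in irradiated libraries and 0, 0.41 and 1.36 FPKM in controls. All irradiated values exceeded all controls, and the change of 1.46 on the log2 scale just passed the threshold (SE 0.36, limma adjusted p = 0.0473). The call was lost under 13 of 16 alternative settings, not tested under 1, among them no filter (adjusted p = 0.0664) and quantile normalization (0.0816). H4c18 had the largest H4 change but spread widely, with 4.48, 9.38 and 7.13 FPKM in irradiated libraries and 3.86, 1.38 and 0 FPKM in controls (1.77, SE 0.56, adjusted p = 0.0758). H4c9, the most abundant H4 gene, was the only one with a change below 0, at 19.6, 19.2 and 20.95 FPKM in irradiated libraries and 30.7, 20.7 and 19.99 FPKM in controls. Its groups overlapped (-0.22, adjusted p = 0.392), and its sign turned after the length and GC correction (0.05). H4c4 (0.88, adjusted p = 0.161) and H4c12 (0.19, adjusted p = 0.552) did not pass either. The class median was 0.64, and 0.19 after quantile normalization.

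No call among the histone genes held when an irradiated library was left out. Without irradiated library 1, 2 or 3, 0 histone genes were called by limma, where 0.516%, 0.599% and 0.911% of all genes were. In these fits 14, 13 and 12 had an unadjusted p below 0.05 (17 with all libraries). The share of all genes at that unadjusted level is not given here, so nothing is read from these counts. With an irradiated library left out, H1f3 and H2ac19 fell below the filter and were not tested. Without control 1, the calls of H1f3 and H2ac19 were the 2 that remained, and 1.63% of all genes were called. Without control 2, 6 were higher and 1 lower, where 4.96% of all genes were called. H2ac24 and H4c11 lost their calls there (adjusted p = 0.0525 and 0.105), so the same counts include other histone genes. Without control 3, 18 were higher (45.8% of all genes) and 3 lower (23.3%). Over these settings the median of the histone genes ran between 0.41 and 0.61.

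Medians were also set side by side for features that the choice of genes did not use. Genes whose transcripts end at most 100 bases past the stem-loop had a median log2 fold change of 0.46 over 17 tested. Those that run further had 0.54 over 14. Those without these letters in their annotated transcripts, some of which may end too early, had 0.54 over 12. The median was 0.48 for 36 genes on chromosome 13 and 0.61 for 7 on chromosome 3. It was 0.28 for 8 genes whose promoter held the octamer and 0.53 for 31 whose promoter did not, and all 8 with it encode H2A or H2B. The 15 tested genes that share at least 80% of their 31-base stretches had a median of 0.45 and the 6 that share under 20% had 0.72. Some of these 6, H1f3 among them, have annotated transcripts far longer than the RefSeq gene, which can lower the share. No test was made between these sets.

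Among the factors that transcribe and process histone mRNA, most stayed below the threshold. Of 21 tested (list of 22, chosen with earlier results of these data known), 1 was called higher and 0 lower, where 9.24% and 2.77% of all genes were. An unadjusted p below 0.05 was found for 9, and the median was 0.22. The called gene was Cramp1l, which measured 6.26, 6.40 and 5.95 FPKM in irradiated libraries and 2.74, 2.66 and 4.11 FPKM in controls (log2 fold change 0.81, SE 0.17, limma adjusted p = 0.0338). In human cells its counterpart CRAMP1 acts in the transcription of H1 genes. Slbp, which encodes the stem-loop binding protein, was 62.8, 55.15 and 56.8 FPKM in irradiated libraries and 67.4, 59.7 and 57.1 FPKM in controls. These values overlapped (-0.07, 95% interval -0.38 to 0.23, adjusted p = 0.677). Npat, the coactivator of the histone locus body, had 11.9, 9.54 and 9.99 FPKM in irradiated libraries and 6.48, 5.30 and 8.91 FPKM in controls, without overlap but short of the threshold (0.56, adjusted p = 0.0936). Casp8ap2, another component of the locus body, had 10.2, 8.70 and 10.4 FPKM in irradiated libraries and 5.37, 3.37 and 9.06 FPKM in controls, where control 3 lay near the irradiated libraries (0.71, adjusted p = 0.129). Pou2f1, which encodes Oct-1, the factor that binds the octamer, had a change of 0.46 (adjusted p = 0.0657) that turned negative after the length and GC correction (-0.16) and lay at -0.00 after quantile normalization.

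Of 21 chaperones and related factors that carry new histones, 1 was called higher (9.24% of all genes) and 0 lower (2.77%). An unadjusted p below 0.05 was found for 4, and the median was -0.01. Daxx, which with Atrx deposits the variant H3.3, measured 25.1, 29.0 and 20.7 FPKM in irradiated libraries and 12.9, 13.03 and 14.8 FPKM in controls (0.82, SE 0.16, limma adjusted p = 0.0270). Atrx measured 19.5, 17.95 and 17.2 FPKM in irradiated libraries and 7.95, 7.83 and 15.2 FPKM in controls and did not pass (0.82, adjusted p = 0.0701). Of 24 S phase genes, 8 had an unadjusted p below 0.05, and the median was -0.13. Among these 24, 0 were called higher (9.24% of all genes) and 1 lower (2.77%). This was Tk1, the thymidine kinase, at -1.11 on the log2 scale (SE 0.26, adjusted p = 0.0437), and Tyms, thymidylate synthase, missed the threshold at -0.54 (adjusted p = 0.0691). Ccne2, an S phase cyclin named after its values were seen, had the highest change of the list but spread widely among controls, with 12.3, 14.5 and 16.4 FPKM in irradiated libraries and 5.51, 1.08 and 10.2 FPKM in controls (1.52, adjusted p = 0.106). The calls of Cramp1l, Daxx and Tk1 were lost without control 1 (adjusted p = 0.142, 0.128 and 0.163), without control 2 (0.0736, 0.0614 and 0.0934) and without any irradiated library (0.0861 to 0.207).

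Genes listed as replication-independent histone genes, many of which are expressed outside S phase too and have polyadenylated mRNAs, were examined beside the replication-dependent genes. How far each listed gene follows the cell cycle was not examined. Of 11 tested, 6 fell (H1f0, H1f10, H2ax, H2az1, Macroh2a2 and Cenpa; 2.77% of all genes did), 0 rose and 5 did not pass. All 11 changes were below 0, with a median of -0.77, but 3 were above 0 after quantile normalization. H2az1, which encodes the variant H2A.Z found at promoters, measured 391, 350.02 and 404 FPKM in irradiated libraries and 770.1, 815 and 741 FPKM in controls (log2 fold change -1.02, SE 0.14, limma adjusted p = 0.00860). Every irradiated value was far below every control. H2ax, whose protein is phosphorylated at DNA breaks, measured 53.0, 52.2 and 66.0 FPKM in irradiated libraries and 136, 149.8 and 92.8 FPKM in controls (-1.11, SE 0.21, adjusted p = 0.0275). The linker histone gene H1f0, known for accumulating in cells that stop dividing, measured 332, 335 and 309.8 FPKM in irradiated libraries and 529, 574 and 781 FPKM in controls (-0.93, SE 0.18, adjusted p = 0.0298). Cenpa, the H3 variant of centromeres, fell by 1.10 on the log2 scale (adjusted p = 0.0464). The genes of variant H3.3, which replaces H3 outside S phase, did not pass, at -0.19 for H3f3a (adjusted p = 0.395) and -0.36 for H3f3b (adjusted p = 0.135), and both signs turned after quantile normalization (0.20 and 0.11). Variant calls numbered 5 with quantile normalization (11.2% of all genes called in either direction), 6 with trimmed-mean scaling (10.4%) and 2 without control 2 (4.96%). They numbered 0 without control 1 or without any irradiated library. In each of these fits without a call, 7 of 11 had an unadjusted p below 0.05, with no share of all genes to set beside it. Quantile normalization ended the calls of H2az1 (adjusted p = 0.0560) and H1f0 (0.196). Whether the variant genes differ in their change from the replication-dependent genes was not tested.

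**Figure D5:**
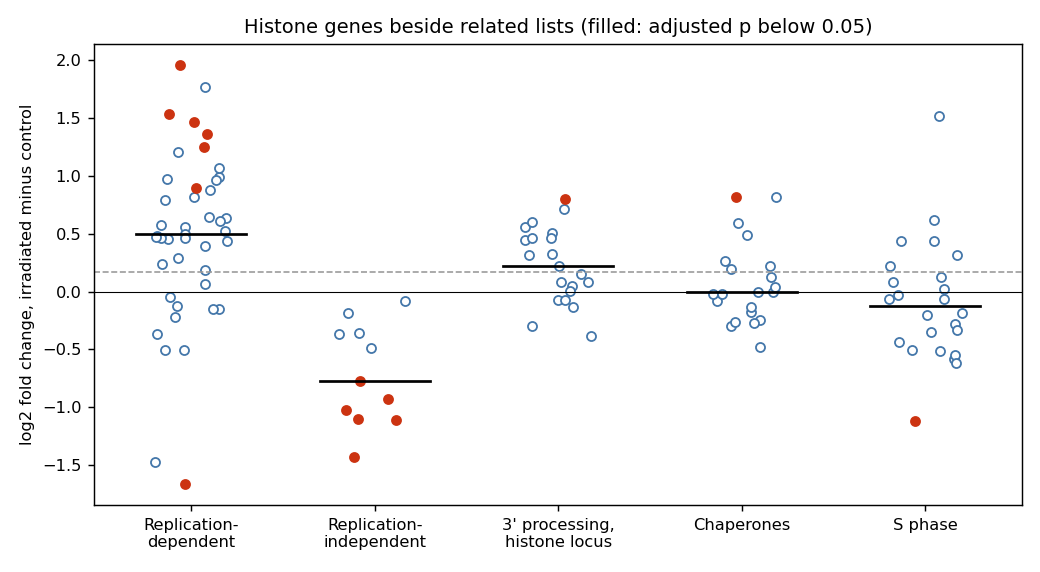
Log2 fold change (irradiated minus control) of each tested gene in 5 lists, with called genes filled, list medians as black bars and a dashed line at the median of all genes tested, 0.17. The replication-dependent genes spread around a median of 0.50 on both sides of 0, while all 11 replication-independent genes lie below 0 around -0.77 on this scale, with 3 above 0 after quantile normalization.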

How the data were processed

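RNA sequencing of 6 SCC7 samples (3 irradiated, 3 control) was analysed. The authors deposited FPKM per gene, per the file headers, rounded to 2 decimals. HISAT and build GRCm38.p6 are named in the submitters' processing notes, while the sources used here do not give the annotation or the counting tool. The depth of each library is unknown, since FPKM holds no fragment numbers and rounding hides the steps of low values, so no interval that needs depth is given. FPKM depends on the length assigned to each transcript and on the library total. All 6 value columns were used, and 0 belonged to other samples.

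The test was limma 3.58.1 (R 4.3.3) on log2(FPKM + 1) for genes that reached 1 FPKM in 3 samples or more, with 2 groups, no covariate and trended, robust eBayes. P-values were adjusted by Benjamini-Hochberg over all genes tested. Counts at an unadjusted p below 0.05 are given without the share of all genes, and nothing is read from them. Fold changes are irradiated minus control on that scale, which understates changes of low genes. The fit assumes equal variance in both groups. The procedure was run on simulated data with the same spread in both groups and changes placed only in more abundant genes. That simulation does not cover the unequal spread and low levels met here, so nothing is read from it. Alternatives were quantile normalization, trimmed-mean scaling (30% of log ratios and 5% of levels trimmed, unweighted), no filter, 5 FPKM, a pseudocount of 0.1, no trend or robust options, group variance weights, a length and GC correction (splines with 4 degrees of freedom), control 3 alone (the spread then comes from the irradiated libraries only), the sample number as a block, and each sample left out. Summing near-identical copies was chosen after seeing the data.

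Members and lists were chosen with earlier results of these data known. Named genes are all called members, the 4 most abundant of each class, the 3 members with the smallest p, 8 fixed genes (Slbp, Npat, Casp8ap2, H2ax, H2az1, H3f3a, H3f3b and H1f0) and the 2 with the smallest p of each other list. Others are named after their values were seen. Coordinates and promoters are from RefSeq GRCm38.p6 and transcripts from GENCODE M21, with 31-base stretches compared between genes. None of the 22 listed RNAs without a poly(A) tail was found by symbol among the genes with values, so none could be set beside the histone genes.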

Additional observations from a re-analysis of the deposited data

How the results depend on the processing

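Counts for the histone genes called higher, 6 with all libraries, were 4 after quantile normalization (5.81% of all genes) or trimmed-mean scaling (6.08%), 1 with the filter at 5 FPKM (7 genes tested, 5.69%), 3 with the replicate block (2.34%), 10 after the length and GC correction (7.61%), 13 against control 3 alone (22.8%), and 0 to 18 on leaving out a library. Those called lower, 1 with all libraries, were 3 after quantile normalization (5.41% of all genes), 2 with group variance weights (4.4%), 0 with the replicate block (0.36%) and 0 to 3 on leaving out a library. Their median, 0.50, was 0.044 after quantile normalization, 0.37 after trimmed-mean scaling, 0.81 with a pseudocount of 0.1, 0.91 after the length and GC correction, 0.36 against control 3 alone, and 0.41 to 0.61 on leaving out a library. Calls among processing factors, 1 with all libraries, were 0 after quantile normalization (11.2% of all genes called in either direction). They were 2 after the length and GC correction (15.7%), 0 with the replicate block (2.7%) and 0 to 12 on leaving out a library. Calls among chaperones, 1 with all libraries, were 0 with the replicate block and 0 to 10 on leaving out a library. Calls among variant genes, 6 with all libraries, were 1 with the replicate block and 0 to 9 on leaving out a library. Calls among S phase genes, 1 with all libraries, were 2 after trimmed-mean scaling (10.4%) or with group variance weights (16.4%). They were 5 after the length and GC correction, and 0 without any filter (7.86%), with the filter at 5 FPKM (8.18%) or with the replicate block. Leaving out a library gave 0 to 13 calls among S phase genes. The highest count of each of these lists came without control 3, where 69.1% of all genes were called. The causes were not tested.

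Signs turned after quantile normalization for H3f3a (0.20), H3f3b (0.11), H4c12 (-0.23), Pou2f1 (-0.0047) and Slbp (0.0063), after the length and GC correction for H3c2 (0.042), H4c9 (0.053) and Pou2f1 (-0.16), against control 3 alone for H2bc8 (-0.23), H4c12 (-0.10) and Slbp (0.026), without control 1 for H4c12 (-0.053, in a range up to 0.336 on leaving out a library), and for H2ac23 when summed with its copy (-1.02). None of these values was called. Samples with the same number did not deviate together (correlations of -0.11, 0.02 and -0.16), so the numbers were not taken as pairs. With the replicate block H2ac24, H2bc4, H2bc23 and H4c11 lost their calls (adjusted p = 0.0665, 0.0516, 0.0771 and 0.0919), where 2.7% of all genes were called. Most of these genes lie below 5 FPKM, and the unknown depth limits what their values can show.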

Other observations

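Among histone genes outside the naming scheme, H2aw, an H2A gene, measured 12.4, 16.5 and 16.6 FPKM in irradiated libraries and 5.21, 4.99 and 11.1 FPKM in controls, above all controls in every irradiated library, and missed the threshold (log2 fold change 1.06, SE 0.30, limma adjusted p = 0.0593). H4f16 overlapped between the groups (-0.44, adjusted p = 0.510), as did H3f3c (-0.09, adjusted p = 0.775). H2bu2, H3f4 and H1f7 stayed below 1 FPKM in every library.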
